A study of Homo sapiens with 6 samples.

Results

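The IFIT genes encode interferon-induced proteins with tetratricopeptide repeats, which bind RNA in the cytoplasm of infected or interferon-treated cells. IFIT1 recognises messenger RNA whose cap lacks ribose methylation and blocks its translation, IFIT2 and IFIT3 assemble with IFIT1 on such RNA, and IFIT5 binds RNA that carries a triphosphate end. Their transcription is switched on through interferon-stimulated response elements (ISREs) in their promoters, downstream of interferon receptors and also directly by interferon regulatory factors such as IRF3. The family members examined, taken by gene symbol, were IFIT1, IFIT2, IFIT3 and IFIT5, 4 of the 15598 genes in the deposited table.

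RNA sequencing compared MHCC97H cells, a human hepatocellular carcinoma line of high metastatic capacity, that carried a short hairpin RNA against HNRNPC (shHNRNPC, 3 libraries) with the same cells carrying a control hairpin (shcontrol, 3 libraries). The product of HNRNPC, hnRNP C, packages nascent transcripts in the nucleus through their uridine tracts. The sample titles give only shHNRNPC or shcontrol, not how many hairpins were used. The labels do not say whether the cells were a pool or a clone. The design text calls the 3 replicates of each group independent (and names a microarray, although the deposited values are read counts), without saying what was separate, so p-values measure the spread between these libraries, which may be technical. Values are given in the order of the libraries that the table names SI_3, SI_3_2 and SI_3_3 (shHNRNPC) and NC_3, NC_3_2 and NC_3_3 (shcontrol). Total counts ranged from 15563077 to 18328475 per library. Levels are in CPM, counts scaled to a common library total with TMM factors. Each fold change sets shHNRNPC over shcontrol, and its adjusted p comes from the quasi-likelihood test of edgeR on 11831 genes. HNRNPC itself stood at 61.5, 66.4 and 59.0 CPM in shHNRNPC libraries, against 847, 855 and 856 CPM in shcontrol libraries.

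Among markers of the labelled cell type, KRT8 and KRT18, keratins of simple epithelia, were high (1159 ± 8.20 and 405 ± 8.77 CPM in shHNRNPC cells, 1006 ± 7.07 and 364 ± 7.16 CPM in shcontrol cells, SD, n = 3), whereas 10 of 14 hepatocyte and epithelial markers, ALB and AFP among them, had under 10 counts per library on average. KRT18 lost its call with GC content and length corrected for. Of 9 leukocyte markers 7 lay under that level, including CD3E and CD14. The summed leukocyte list was 65.5 to 70.3 CPM in shHNRNPC and 42.7 to 49.3 CPM in shcontrol libraries, mostly from CD68 (64.9 CPM in shHNRNPC and 43.2 CPM in shcontrol cells, edgeR adjusted p = 3.15e-13). The other tested leukocyte markers, CD14 and ITGAM, did not pass (edgeR adjusted p = 0.286 and 0.897). Summed fibroblast and endothelial markers, of which 5 of 9 lay under 10 counts per library, were 356 to 360 CPM in shHNRNPC and 436 to 443 CPM in shcontrol libraries, mostly from ACTA2. The part of either list in the IFIT values was not tested.

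The promoter windows of the family are printed because the members share a response element that their selection by symbol did not use. RefSeq promoters (GRCh38.p14, 250 bases before to 50 after the annotated start) were found for 3 of the 4 members, IFIT3 with 2 alternative starts, and IFIT2 was not matched. The window of IFIT1B, the paralogue inside the same cluster, is given beside them. All windows are on the plus strand of chromosome 10. Capitals mark each match to the core of the ISRE, which is GAAA, any 2 bases and GAAA, searched on both strands and found here on the minus strand, so that the printed strand shows the reverse complement.
IFIT1, chr10:89392373-89392672: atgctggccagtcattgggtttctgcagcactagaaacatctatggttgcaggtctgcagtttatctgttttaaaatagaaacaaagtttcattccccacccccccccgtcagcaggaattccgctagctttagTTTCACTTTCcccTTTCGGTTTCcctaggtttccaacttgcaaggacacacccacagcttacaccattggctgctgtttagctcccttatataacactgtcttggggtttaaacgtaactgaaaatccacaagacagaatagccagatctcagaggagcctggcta
IFIT3 window 1, chr10:89327747-89328046: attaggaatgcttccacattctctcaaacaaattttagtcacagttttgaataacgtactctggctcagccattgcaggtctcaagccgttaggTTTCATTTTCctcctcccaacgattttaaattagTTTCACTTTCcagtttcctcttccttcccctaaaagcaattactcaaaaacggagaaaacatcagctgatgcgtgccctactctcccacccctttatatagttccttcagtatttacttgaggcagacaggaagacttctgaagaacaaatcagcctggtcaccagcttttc
IFIT3 window 2, chr10:89332279-89332578: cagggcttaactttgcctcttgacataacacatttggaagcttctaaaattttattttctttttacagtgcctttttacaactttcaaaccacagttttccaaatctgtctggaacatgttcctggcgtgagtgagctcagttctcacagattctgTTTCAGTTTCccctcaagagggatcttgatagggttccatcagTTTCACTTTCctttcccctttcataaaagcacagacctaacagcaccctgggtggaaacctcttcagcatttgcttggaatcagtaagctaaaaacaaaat
IFIT5, chr10:89414318-89414617: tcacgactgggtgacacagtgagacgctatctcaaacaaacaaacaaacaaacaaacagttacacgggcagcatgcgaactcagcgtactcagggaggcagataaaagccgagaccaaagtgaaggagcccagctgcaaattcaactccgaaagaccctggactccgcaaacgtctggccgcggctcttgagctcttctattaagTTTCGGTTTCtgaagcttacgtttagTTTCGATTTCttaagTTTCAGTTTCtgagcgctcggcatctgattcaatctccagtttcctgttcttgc
IFIT1B, chr10:89377806-89378105: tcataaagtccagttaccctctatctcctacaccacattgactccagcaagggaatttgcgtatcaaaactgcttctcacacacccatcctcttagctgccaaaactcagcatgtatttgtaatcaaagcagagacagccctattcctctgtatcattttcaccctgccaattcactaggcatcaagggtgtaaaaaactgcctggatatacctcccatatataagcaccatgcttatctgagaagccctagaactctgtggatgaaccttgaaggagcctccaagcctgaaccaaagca

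Each of the 4 windows of the members held at least 2 ISRE cores, and none of these cores overlapped another or a TATAAA match. Over all 35116 promoter windows of the RefSeq table, 3.57% held at least 1 core and 0.259% held at least 2. In IFIT1 the cores covered bases -116 to -107 and -103 to -94, counted from the start site as 0. In IFIT3 they lay at -156 to -147 and -122 to -113 before the upstream start and at -94 to -85 and -51 to -42 before the downstream start. IFIT5 had 3 cores that sat closer to its start, at -45 to -36, -19 to -10 and -4 to 5. The IFIT1B window had 0 matches. The GAS core (TTC, any 3 bases, GAA), found in 7.66% of all windows, had 0 matches in the members' windows. TATAAA, present on either strand in 11.5% of all windows, matched once, in the upstream IFIT3 window. A match is a string of letters and does not show that a factor bound there.

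**Figure D1:**
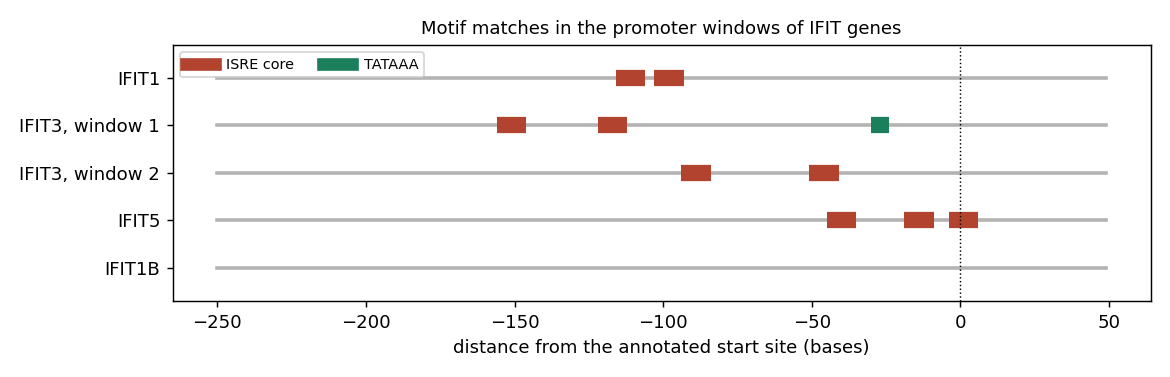
Matches to the ISRE core and to TATAAA along the promoter windows of IFIT1, IFIT3 (2 starts), IFIT5 and IFIT1B, with the x axis as distance in bases from the annotated start site (dotted line). IFIT1 and both IFIT3 windows carry 2 ISRE cores each, IFIT5 carries 3 that lie nearest to its start, and IFIT1B carries 0.

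IFIT1, IFIT2 and IFIT3 rose between 1.73-fold and 2.26-fold in the knocked-down cells, whereas IFIT5 was 1.10-fold higher. The family's summed level was 740.0 ± 12.9 CPM in shHNRNPC cells and 386 ± 3.89 CPM in shcontrol cells (SD, n = 3 each). All 4 members passed the test as higher, where 29.8% of all tested genes did, and 61.1% changed in either direction. The 2 groups of libraries did not overlap for 3 of the 4 members, all higher in shHNRNPC, where 30.9% of tested genes were apart in that direction and 33% in the other. When tested for a change beyond 1.5-fold, IFIT1, IFIT2 and IFIT3 passed and IFIT5 did not, where 1.83% of all tested genes passed as higher. In bulk RNA, a change in the share of cells that express a gene and a change in its RNA per cell cannot be told apart.

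IFIT2, a partner of IFIT1 that is also linked to apoptosis, had 155.8, 160.1 and 161 CPM in shHNRNPC libraries, against 68.9, 70.3 and 71.9 CPM in shcontrol libraries. The 3 shHNRNPC values lay close together and far above the shcontrol values. Its level rose 2.26-fold (log2 fold change 1.18, SE 0.036, edgeR adjusted p = 4.40e-30), the largest fold change of the family. In the order of log2 fold changes over all 11831 tested genes it stood at place 157.

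IFIT3, which stabilises IFIT1 and enhances its RNA binding, had 293, 286 and 274 CPM in shHNRNPC libraries, against 133, 131 and 132 CPM in shcontrol libraries. The spread was wider in the knocked-down cells, at 284 ± 9.58 CPM, than in the controls, at 132 ± 1.04 CPM (SD, n = 3 each), and the groups were far apart. IFIT3 rose 2.16-fold (log2 fold change 1.11, SE 0.030, edgeR adjusted p = 1.12e-32) and stood at place 179. IFIT2 and IFIT3 were the members called with at least a 2-fold rise, which 1.87% of all tested genes had.

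IFIT1, the cap-sensing member, had 264, 259 and 254 CPM in shHNRNPC libraries, against 147, 149 and 152 CPM in shcontrol libraries. No shHNRNPC value came near the shcontrol range. IFIT1 rose 1.73-fold (log2 fold change 0.79, SE 0.029, edgeR adjusted p = 2.32e-27) and stood at place 367. For these 3 genes the log2 fold changes in the authors' deposited table were 1.18 for IFIT2, 1.11 for IFIT3 and 0.80 for IFIT1.

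IFIT5, the triphosphate-binding member, had 39.6, 35.5 and 37.6 CPM in shHNRNPC libraries, against 36.7, 31.1 and 34.1 CPM in shcontrol libraries. The groups overlapped, with the highest shcontrol library above the lowest shHNRNPC library. Its 1.10-fold higher level passed the threshold narrowly (log2 fold change 0.14, SE 0.063, edgeR adjusted p = 0.0473), at place 3749. The call was lost with DESeq2 (adjusted p = 0.131, and 0.130 in the authors' deposited table), with scaling by library size alone (adjusted p = 0.157), without a filter on low counts (adjusted p = 0.0531), and when library SI_3, SI_3_3, NC_3_2 or NC_3_3 was left out (adjusted p = 0.213, 0.0894, 0.283 and 0.0894). With GC content and length of the transcripts corrected for, the value was larger, at 0.49 (SE 0.061, adjusted p = 2.01e-10), and over all 16 alternatives the adjusted p ran from 2.01e-10 to 1.

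**Figure D2:**
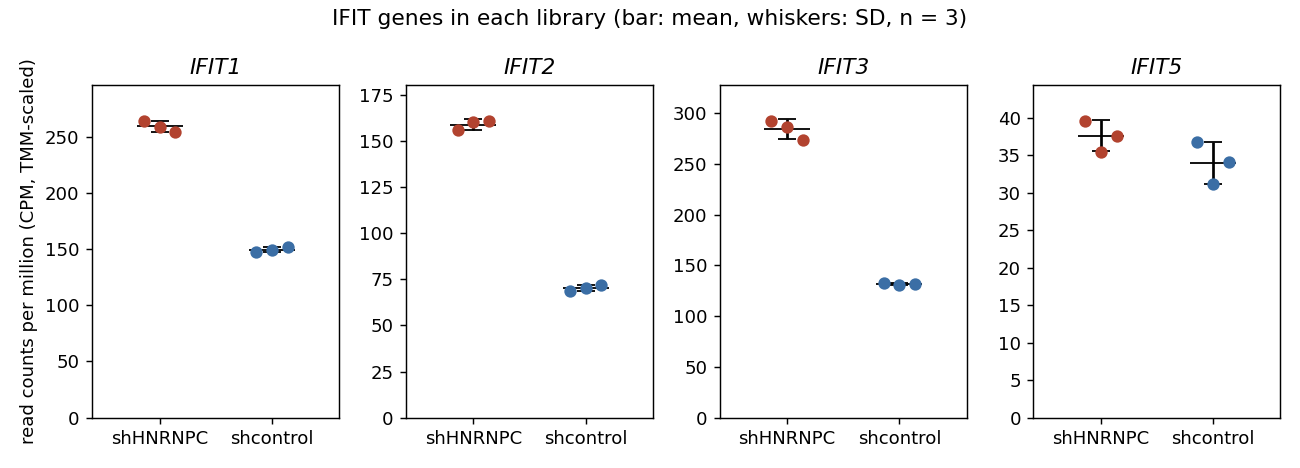
CPM of IFIT1, IFIT2, IFIT3 and IFIT5 in the 3 shHNRNPC libraries (left in each panel) and the 3 shcontrol libraries (right), with points for libraries, bars for means and whiskers for SD. The groups are apart for IFIT1, IFIT2 and IFIT3 and overlap for IFIT5. Each panel has its own linear axis from 0.

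IFIT1B, the paralogue for which the table lists a separate row, was close to undetected, with 3, 1 and 1 counts in shHNRNPC libraries and 0, 0 and 1 in shcontrol libraries. It did not pass the filter on low counts and was not tested. The ratio of its summed counts per total was 4.84, with a 95% interval from counting error (exact Clopper-Pearson) of 0.542 to 229, which does not settle a direction. Reads that fit IFIT1 and IFIT1B equally could be split or dropped in counting, and their handling is not stated in the labels.

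The fold changes of the members were of unequal size. Because a ratio of counts within a library does not depend on library scaling, all 6 pairs of members were compared that way. The log2 ratio of IFIT1 to IFIT3 was -0.15, -0.15 and -0.11 in shHNRNPC libraries, against 0.15, 0.19 and 0.20 in shcontrol libraries. IFIT1 had fewer counts than IFIT3 in every shHNRNPC library and more in every shcontrol library. The log2 ratio of IFIT1 to IFIT2 was 0.76, 0.69 and 0.66 in shHNRNPC libraries, against 1.10, 1.09 and 1.08 in shcontrol libraries, and these groups did not overlap either. The ratio of IFIT2 to IFIT3 averaged -0.84 ± 0.072 in shHNRNPC and -0.91 ± 0.037 in shcontrol libraries (log2, SD, n = 3 each), and here the groups overlapped (exact permutation p = 0.30).

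Relative to IFIT5, the other 3 members each stood higher in every shHNRNPC library than in any shcontrol library. The mean log2 ratio of IFIT2 to IFIT5 was 2.08 ± 0.10 in shHNRNPC and 1.05 ± 0.136 in shcontrol libraries, a difference of 1.03. For IFIT3 to IFIT5 it was 2.92 ± 0.080 in shHNRNPC and 1.96 ± 0.108 in shcontrol libraries, a difference of 0.96. For IFIT1 to IFIT5 it was 2.79 ± 0.069 in shHNRNPC and 2.14 ± 0.131 in shcontrol libraries, a difference of 0.65. Apart from IFIT2 to IFIT3, every pair had groups that did not overlap and a two-sided exact permutation p of 0.10, the smallest that 3 libraries against 3 allow (0.12 adjusted over the 6 pairs), so the threshold of 0.05 could not be reached.

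Levels of different members compare only per length, here as CPM per kilobase of the longest coding transcript in GENCODE 29. IFIT3 was the highest, with 114 ± 3.84 in shHNRNPC and 52.8 ± 0.417 in shcontrol cells (SD, n = 3). IFIT1 came next with 56.2 ± 1.11 in shHNRNPC and 32.4 ± 0.472 in shcontrol cells, then IFIT2 with 42.9 ± 0.767 in shHNRNPC and 19.0 ± 0.410 in shcontrol cells. IFIT5 was the lowest at 9.36 ± 0.514 in shHNRNPC and 8.46 ± 0.699 in shcontrol cells. In either group the ranges of neighbours in this order did not overlap. The order of IFIT1 and IFIT3 depended on the transcript: with the shorter IFIT1 transcript of 1880 bases that GENCODE pairs with the accession in the deposited table, in place of 4613 bases, IFIT1 was at 138 ± 2.71 in shHNRNPC and 79.5 ± 1.16 in shcontrol cells, above IFIT3 in both. Which transcripts these cells made was not determined.

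The 4 genes lie in a row on the plus strand of chromosome 10. The deposited table places IFIT2 at 89302046 to 89308919, IFIT3 at 89332484 to 89340971, IFIT1 at 89392546 to 89403988 and IFIT5 at 89414586 to 89421001, positions whose genome build is not given in the sources used here. From one end to the other the cluster spans 119 kb, and along it the log2 fold change was 1.18 for IFIT2, 1.11 for IFIT3, 0.79 for IFIT1 and 0.14 for IFIT5. From 1 Mb before to 1 Mb after the cluster, IFIT1B inside it included, the table lists 9 other genes, of which 6 were tested. Among these 2 were called higher (29.8% of all tested genes), 3 were called lower (31.3% of all tested genes), and the median log2 fold change was -0.16.

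LIPA, the lysosomal acid lipase gene upstream of IFIT2, rose 1.29-fold, to 73.5 ± 2.39 CPM in shHNRNPC cells against 56.9 ± 1.83 CPM in shcontrol cells (SD, n = 3 each, edgeR adjusted p = 1.59e-09). FAS, which encodes a death receptor, rose 1.33-fold (edgeR adjusted p = 0.0108) and lost its call without library SI_3 (adjusted p = 0.0517) and with DESeq2 (adjusted p = 0.0570). On the other side of the cluster PANK1, a pantothenate kinase gene, had a log2 fold change of -0.02 (edgeR adjusted p = 0.875). KIF20B, a mitotic kinesin gene, fell 2.11-fold. Its log2 fold change was -1.07, or -0.54 after the GC and length correction. STAMBPL1 and ACTA2, farther upstream, had log2 fold changes of -0.35 and -0.31, both called lower.

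In GENCODE 29 the LIPA gene extends on the minus strand across IFIT2, IFIT3 and IFIT1, but its exons share 65 bases with those of IFIT2 (1.58% of them) and 0 with those of IFIT1, IFIT3 and IFIT5. AL353751.1, annotated on the plus strand, shares 356 exonic bases with IFIT2 (8.68%). The sources used here do not state whether counting used strand. Without it, reads from the 65 bases shared with LIPA cannot be assigned to one gene. AL353751.1 lies on the same strand as IFIT2, so strand would not separate reads from those 356 bases.

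**Figure D3:**
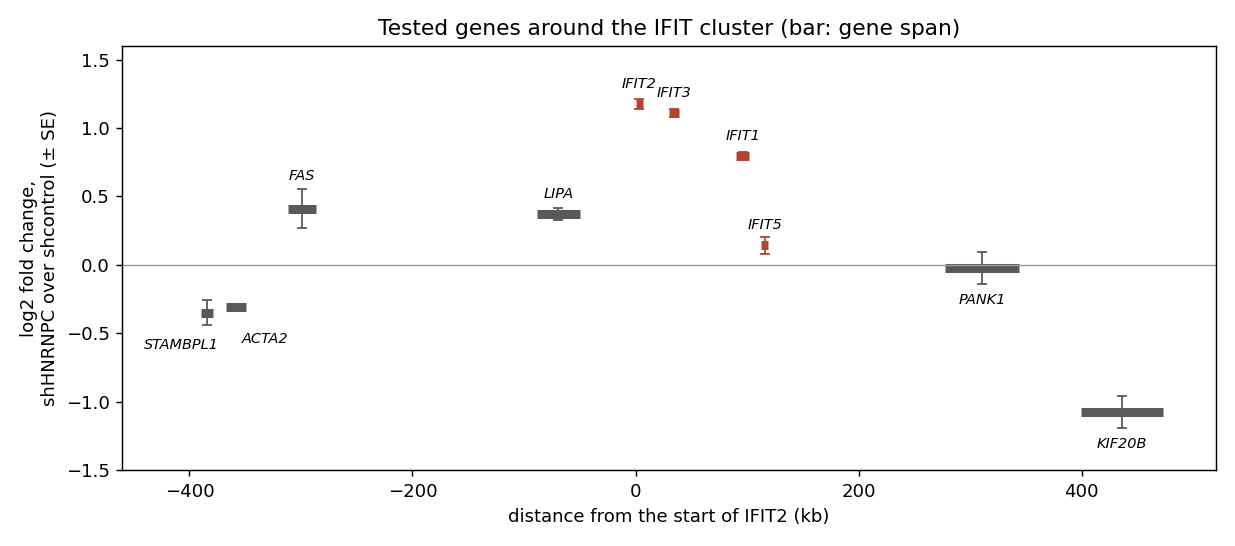
Log2 fold change (y axis, whiskers for SE) of the tested genes within 1 Mb of the IFIT cluster, drawn at the gene's distance in kb from the start of IFIT2 (x axis), with the horizontal bar as the gene's span and the IFIT genes in red. IFIT2, IFIT3 and IFIT1 stand above every other tested gene in the window, and IFIT5 lies between LIPA and PANK1.

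The transcripts of IFIT1, IFIT2 and IFIT3 were close in base composition, and that of IFIT5 had less GC. GC content of the longest coding transcript was 42.2% in IFIT1, 42.8% in IFIT2 and 44.3% in IFIT3, and 37.4% in IFIT5, against a median of 48.4% over all tested genes. Runs of at least 5 uridines, the kind of tract hnRNP C binds in nascent RNA, numbered 3 in IFIT1, 4 in IFIT2 and 3 in IFIT3. IFIT5 had 21, which is 5.23 per kilobase and more than in 96.3% of tested genes, where the median was 1.76 per kilobase. These counts are of mature transcripts and leave out introns. With GC content and length corrected for, the log2 fold changes were 1.33 for IFIT2, 1.14 for IFIT3, 1.02 for IFIT1 and 0.49 for IFIT5, in the same order as uncorrected. Whether transcript composition has a part in the lower value of IFIT5 was not tested.

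**Figure D4:**
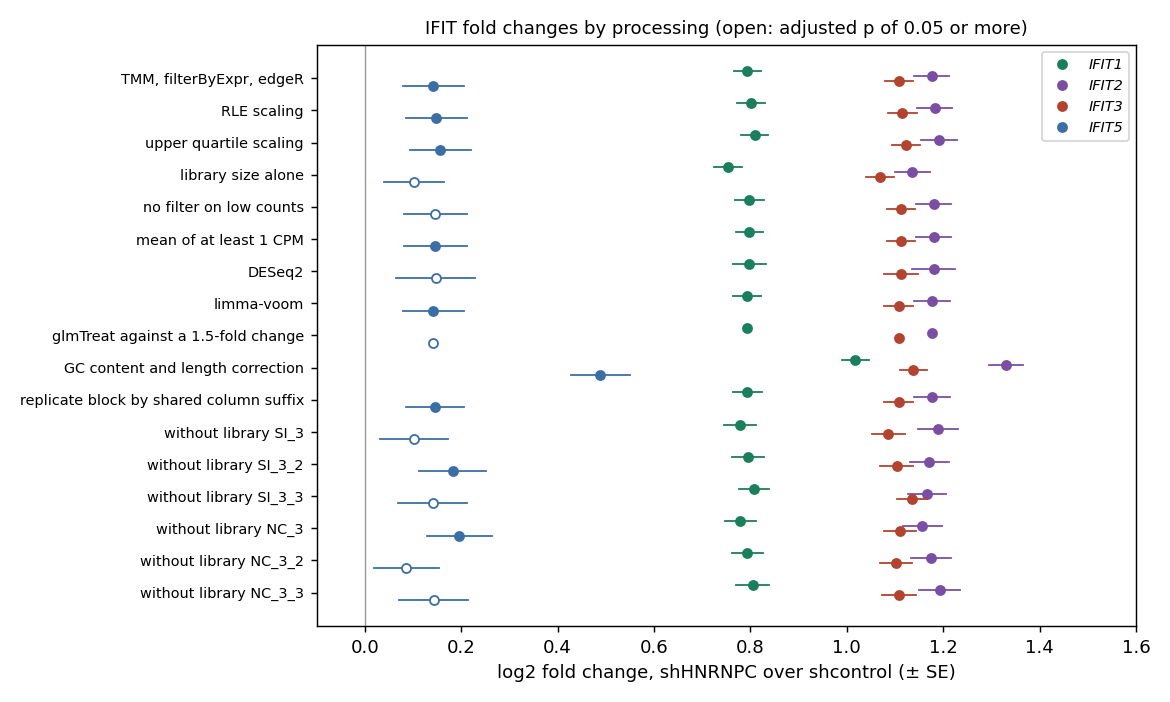
Log2 fold changes (x axis, whiskers for SE where the test gives it) of IFIT1, IFIT2, IFIT3 and IFIT5 under each processing (rows), with filled points for an adjusted p under 0.05. IFIT1, IFIT2 and IFIT3 are filled in every row, from 0.75 to 1.33. IFIT5 is filled in the first row and in 8 of the 16 others, and lies between 0.09 and 0.49.

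Profiles over the 6 libraries were compared by the Euclidean distance between log2 CPM values centred on each gene's mean, among genes with a mean of at least 5 CPM. For IFIT2 the nearest profiles were those of UBE2L6, the conjugating enzyme for ISG15 (distance 0.105, log2 fold change 1.17), OAS1, an oligoadenylate synthetase (0.118, 1.10), and IFI35, an interferon-induced protein (0.122, 1.08). For IFIT3 they were DDX60L, a helicase-like gene (distance 0.0733, log2 fold change 1.09), UBE2L6 (0.0923) and OAS1 (0.0944). IFIT3 and IFIT2 were each at place 8 in the other's order, at a distance of 0.142. For IFIT1 they were SLC44A2, a choline transporter-like gene (distance 0.0233, log2 fold change 0.80), MOV10, an RNA helicase with antiviral activity (0.0676, 0.75), and BTN3A2, a butyrophilin (0.0799, 0.84). IFIT5 was nearest to IFT27, BAIAP2L1 and ID1 (distances 0.0393, 0.0505 and 0.0689), whose log2 fold changes were 0.16, 0.15 and 0.13, while IFIT1 came at place 8312 in that order. With 2 groups of 3 libraries, this distance reflects mainly the size of the fold change.

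The family was set among other interferon-stimulated effector genes. Of 34 tested effectors, 32 were called higher and 1 lower, beside 29.8% higher and 31.3% lower over all tested genes. With scaling by library size alone 30 effectors were called higher. The effectors had a median log2 fold change of 0.95, beside -0.0041 over all tested genes. IFIT2 and IFIT3 each had 12 effectors with a larger and 22 with a smaller log2 fold change, IFIT1 had 19 larger and 15 smaller, and IFIT5 had 30 larger and 4 smaller. OASL, an oligoadenylate synthetase-like protein, OAS2, IFITM1, which restricts viral entry, and MX1, an antiviral GTPase, had log2 fold changes of 1.98, 1.56, 1.73 and 0.95.

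Of 8 listed factors that act on ISREs, 6 were tested. Among these 5 were called higher and 0 lower, beside 29.8% higher and 31.3% lower over all tested genes. The 6 had a median log2 fold change of 0.47, below that of IFIT1, IFIT2 and IFIT3 and above that of IFIT5 (0.14). The place of IFIT5 depended on the processing. Once GC content and length were corrected for, IFIT5 was at 0.49 (SE 0.061), no longer below these factors, whose median was then 0.45. STAT2 rose 1.42-fold, to 112 ± 0.558 CPM in shHNRNPC cells, against 78.6 ± 2.22 CPM in shcontrol cells (SD, n = 3 each). IRF1 rose 1.83-fold. IRF3, which can act on IFIT promoters directly, rose 1.38-fold (log2 fold change 0.46, and 0.29 after the GC and length correction).

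A list around triphosphate and double-stranded RNA sensing was broader than RNA sensors and their adaptors. Of its 15 tested genes 7 were higher and 3 lower (median 0.20), where 29.8% of all tested genes were higher and 31.3% lower. With scaling by library size alone 7 were higher and 5 lower, where 2988 of all 11831 tested genes were higher and 4160 lower. After the GC and length correction 10 were higher and 2 lower (median 0.35). The 4 genes of this list with the smallest adjusted p were all higher. DHX58 (LGP2), ZNFX1, ADAR, which edits double-stranded RNA, and TMEM173 (STING) rose 3.80-fold, 2.17-fold, 1.37-fold and 1.41-fold. Of 8 tested brakes on interferon signalling 4 were higher and 2 lower (median 0.38). ISG15, USP18 and SOCS1 rose 2.43-fold, 2.56-fold and 2.09-fold, whereas PTPN11, a phosphatase, fell 1.82-fold. Among 8 tested interferon receptor chains and kinases 1 was higher and 3 lower (median -0.04), beside 29.8% higher and 31.3% lower over all tested genes, and after the GC and length correction 0 were higher. IFNAR1 fell 1.35-fold (log2 fold change -0.43, and -0.16 after that correction), and IFNLR1, a chain of the lambda interferon receptor, fell 2.21-fold at 0.644 ± 0.182 CPM in shHNRNPC cells against 1.44 ± 0.303 CPM in shcontrol cells. IFNGR1 and IFNGR2 had log2 fold changes of -0.26 and 0.31 and lost their calls after the correction.

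Transcripts of the interferons themselves, the ligands upstream of the family, were counted in small numbers. IFNL1 had 27, 31 and 17 counts in shHNRNPC libraries, against 1, 11 and 10 in shcontrol libraries, and rose 3.35-fold (log2 fold change 1.75, SE 0.41, edgeR adjusted p = 2.96e-04). IFNB1 had 9, 10 and 9 counts in shHNRNPC libraries, against 2, 2 and 3 in shcontrol libraries. Its groups did not overlap, but it was under the filter on low counts and was not tested, and the ratio of summed counts per total was 3.87 with an exact Clopper-Pearson 95% interval of 1.65 to 10.5 for counting error only. IFNL2, IFNL3 and IFNL4 had between 0 and 2 counts in any library. The list held 22 interferon genes, of which these 5 had a row in the deposited table, so the others could not be analysed.

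**Figure D5:**
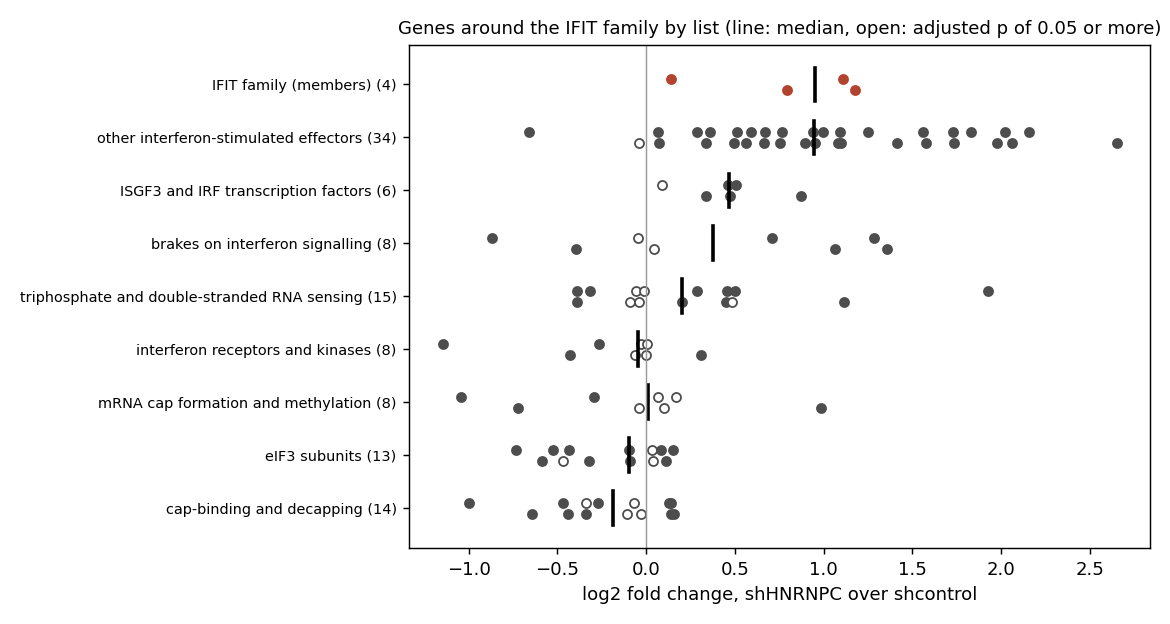
Log2 fold change (x axis) of each tested gene in the IFIT family (red) and in 8 lists of genes around it (rows, number tested in brackets), with filled points for an adjusted p under 0.05 and a vertical line at the median. The IFIT family and the other effectors have medians of 0.95 each. The medians of the cap formation, eIF3 and cap-binding lists lie around 0 or below, with single genes on both sides of 0.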

How the data were processed

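RNA was extracted with Trizol and libraries were made with a NEBNext Ultra RNA kit, per the labels' protocols. STAR, HTSeq 0.6.0 and DESeq2 are named in the submitters' processing notes. The sources used here give no genome build, annotation or strand setting. Deposited counts are unnormalised whole read numbers for each gene. Log2 fold changes and p-values in the authors' deposited table compare SI with NC. Columns could be assigned to groups by these names but not to single samples. A further 24 columns, among them length-scaled values, were left unused, so levels per length were computed from counts.

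Analysis used R 4.3.3 and edgeR 4.0.16 (filterByExpr, TMM, glmQLFit and glmQLFTest, Benjamini-Hochberg adjustment, threshold 0.05), with limma 3.58.1 and DESeq2 1.42.0 as alternatives. The SE is the absolute log2 fold change divided by the root of F. Within-library ratios had 0.5 added to each count and were tested with scipy 1.17.1. Transcript features came from GENCODE 29, and their correction was a loess fit per library. Replicates differed beyond counting noise (chi-square of 1.56 to 2.50 for each gene, against 1 for noise). The scripts were tested on simulated counts. Other genes were named by rule: the 3 nearest profiles per member, tested genes within 1 Mb, and up to 4 genes per list with the smallest adjusted p, of which 1 is not reported here. Members, lists and rules were chosen with earlier results of these data known.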

Additional observations from a re-analysis of the deposited data

How the results depend on the processing

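IFIT1, IFIT2 and IFIT3 stayed past the threshold and in the same direction under all 16 alternatives run, with log2 fold changes of 0.75 to 1.02, 1.14 to 1.33 and 1.07 to 1.14. IFIT5 stayed past it under 8. Its log2 fold change was 0.10 with scaling by library size alone, 0.15 without a filter on low counts and 0.15 with DESeq2, none of them past the threshold. Against a 1.5-fold change its value of 0.14 did not pass either, because that test asks for a larger change. Leaving out a library gave IFIT5 0.0856 to 0.197. The test against a 1.5-fold change called 217 genes higher, 391 lower and 608 in all, in place of 3520, 3708 and 7228. With 1 library left out, 3250 to 3369 genes were called higher and 3464 to 3615 lower. The within-library differences kept their direction with 5 added to each count and with any library left out.

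Levels per length (CPM per kilobase) with lengths chosen after the data were examined were, for the transcript paired with the deposited accession, 138 in shHNRNPC and 79.5 in shcontrol cells for IFIT1, and 45.6 in shHNRNPC and 20.2 in shcontrol cells for IFIT2. With all exons merged they were 38.8 in shHNRNPC and 17.2 in shcontrol cells for IFIT2, and 107.7 in shHNRNPC and 49.9 in shcontrol cells for IFIT3. Only the length changed. Among the lists, 0 interferon receptor and kinase genes were higher after the GC and length correction. With scaling by library size alone 5 sensing genes were lower, and over all tested genes 4160 were lower, in place of 3708. The cause was not tested. Tests on the authors' length-scaled values were not run, since only counts could be used. The SI and NC column names share suffixes that the labels do not give, and libraries with the same suffix did not deviate together (correlations of -0.04, 0.01 and -0.04 across 11831 genes). A fit with that suffix as a replicate block, added after the data were examined, called 3488 genes higher and 3671 lower and changed no call among the members (IFIT5 log2 fold change 0.15, adjusted p = 0.0344).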

Other observations

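Genes that make, bind or remove the mRNA cap, on which IFIT1 acts, were counted from gene lists. Of 8 tested genes of cap formation and methylation, 1 was called higher and 3 lower, with a median log2 fold change of 0.01, beside 29.8% higher and 31.3% lower over all tested genes. CMTR1, which methylates the cap ribose and so shields mRNA from IFIT1, was at 121 CPM in shHNRNPC cells and 115 CPM in shcontrol cells and did not pass (edgeR adjusted p = 0.116). It was chosen for its role after its values were seen. CMTR2, the other cap ribose methyltransferase, fell to 1.13 ± 0.334 CPM in shHNRNPC cells, against 1.85 ± 0.376 CPM in shcontrol cells (SD, n = 3 each, log2 fold change -0.72, edgeR adjusted p = 0.0263). That call was lost with DESeq2 (adjusted p = 0.118), with transcript composition corrected for (log2 fold change -0.35, adjusted p = 0.311) and without library SI_3_2, SI_3_3 or NC_3_3 (adjusted p = 0.0551, 0.156 and 0.140). RNGTT, the capping enzyme, fell 2.06-fold, to 9.35 ± 0.832 CPM in shHNRNPC cells against 19.3 ± 1.54 CPM in shcontrol cells (SD, n = 3 each). RNMT, the cap guanine methyltransferase, fell 1.23-fold, a call that was lost with transcript composition corrected for (log2 fold change 0.02). RAMAC, its activating subunit, rose 1.98-fold at low levels (1.51 ± 0.471 CPM in shHNRNPC cells and 0.762 ± 0.0616 CPM in shcontrol cells) and lost its call without library SI_3_3 (adjusted p = 0.117) and with DESeq2 (adjusted p = 0.0519).

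Of 13 tested eIF3 subunits, the translation factor complex that IFIT1 and IFIT2 can bind, 3 were higher and 7 lower (median -0.10), beside 29.8% higher and 31.3% lower over all tested genes. EIF3A, EIF3J, EIF3E and EIF3G fell, with log2 fold changes of -0.59, -0.53, -0.43 and -0.32. With transcript composition corrected for, these were -0.33, -0.35, -0.35 and -0.52. Counts of EIF3C and EIF3CL, near-identical copies, are uncertain. Of 14 tested cap-binding and decapping genes 4 were higher and 6 lower (median -0.19), against the same shares over all tested genes. XRN1, the exonuclease that degrades decapped mRNA, fell to 10.6 ± 0.832 CPM in shHNRNPC cells, against 21.1 ± 1.32 CPM in shcontrol cells (SD, n = 3 each). Its log2 fold change was -0.50 with transcript composition corrected for. NCBP1, EIF4G3 and EIF4G2 fell 1.39-fold, 1.36-fold and 1.21-fold. Their log2 fold changes were -0.47, -0.44 and -0.27, or -0.20, -0.29 and -0.11 with the same correction.

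Genes other than the members were also counted by the number of ISRE cores in their promoter windows, a grouping made after the data were examined and given with no test. Of 36 tested genes with at least 2 cores, 20 were called higher (55.6%) and 6 lower (16.7%), 8 were at least 2-fold higher (22.2%), and the median log2 fold change was 0.37. Of 360 tested genes with at least 1 core, these 36 included, 34.2% were called higher and 32.2% lower, 5.83% were at least 2-fold higher, and the median was 0.03. Of 9052 tested genes with no core, 29.3% were called higher and 32.1% lower, 1.43% were at least 2-fold higher, and the median was -0.01. Of the 36 genes, 13 belong to the gene lists described here, several of which were chosen for ties to interferon.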
